A study of Homo sapiens with 6 samples.

Results

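The genes described here are 10 long RNAs that do not code for protein: MALAT1, NEAT1, MEG3, H19, TUG1, PVT1, DANCR and the microRNA host genes MIR17HG, MIR22HG and MIR210HG. They were chosen by name, as the rows of a gene table whose symbol is one of these names. Of the 10 names, 9 had a row, among 48114 rows in all, and all 9 passed the filter on low values that left 23923 rows for testing. No row carried the symbol NEAT1. A row without a symbol covers the position of NEAT1 in the GENCODE v29 annotation, and its values are given separately and not counted among the members.

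The cells were TC-71, an established human Ewing sarcoma line labelled as wild type. They were treated for 16 h with BEZ235, a small-molecule inhibitor of the PI3K and mTOR kinases, or with its solvent DMSO. Each group held 3 libraries of total RNA, described by the labels as biological replicates, all from this 1 line. The values are normalized counts, that is, read counts scaled by the authors, and a log2 fold change below is BEZ235 minus DMSO on the log2(normalized count + 1) scale. A gene was called where the limma adjusted p was under 0.05, and "rose" or "fell" is written of called genes alone.

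Long noncoding RNAs act as RNA, without being translated. MALAT1 gathers at nuclear speckles, which store splicing factors, and NEAT1 is the scaffold of paraspeckles, nuclear bodies that hold RNA-binding proteins. MEG3 and H19 are imprinted transcripts expressed from the maternal copy. TUG1, PVT1 and DANCR are widely expressed, PVT1 lying beside the MYC oncogene and DANCR carrying a small nucleolar RNA and a microRNA. A host gene is transcribed as a long primary RNA, from which the Drosha complex cuts a hairpin that Dicer trims to a mature microRNA.

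The mature microRNAs themselves were not measured, and their sequences are shown because the seed, bases 2 to 8 from the 5′ end and in capitals here, sets which messages a microRNA pairs with. They are RefSeq sequences on GRCh38.p14. The MIR17HG hairpins give 12 mature sequences from 6 hairpins, and the commonly cited arm of each hairpin is shown.
miR-17-5p: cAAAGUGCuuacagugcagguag
miR-20a-5p: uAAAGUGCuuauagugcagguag
miR-18a-5p: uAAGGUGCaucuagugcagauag
miR-19a-3p: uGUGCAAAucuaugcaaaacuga
miR-19b-3p: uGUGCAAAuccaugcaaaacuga
miR-92a-3p: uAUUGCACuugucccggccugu
MIR22HG, MIR210HG and H19 hold 1 hairpin each, with these sequences.
miR-22-3p: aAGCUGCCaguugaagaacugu
miR-210-3p: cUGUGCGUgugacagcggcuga
miR-675-5p: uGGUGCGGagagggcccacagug
miR-17-5p and miR-20a-5p share the seed AAAGUGC, and miR-19a-3p and miR-19b-3p share GUGCAAA. The seeds of miR-22-3p, miR-210-3p and miR-675-5p differ from these and from one another. All of these sequences lie inside the deposited row of their host gene.

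Of the 9 members tested, 8 were called after BEZ235, 4 higher and 4 lower, against 66.3% of all rows tested. TUG1, DANCR, H19 and MIR17HG rose, and MALAT1, MEG3, PVT1 and MIR22HG fell, while MIR210HG was not called. Among all rows tested 33.1% were called higher and 33.2% lower, so a call in either direction was common. The 3 BEZ235 libraries lay entirely above or below the 3 DMSO libraries for 8 of the 9 members, against 70.9% of all rows. A call together with a change of at least 2-fold was reached by 4 of the 9 members, against 26.3% of all rows. The median log2 fold change of the 9 members was -0.10 and its median size was 0.87, against -0.00085 and 0.60 over all rows tested.

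**Figure D1:**
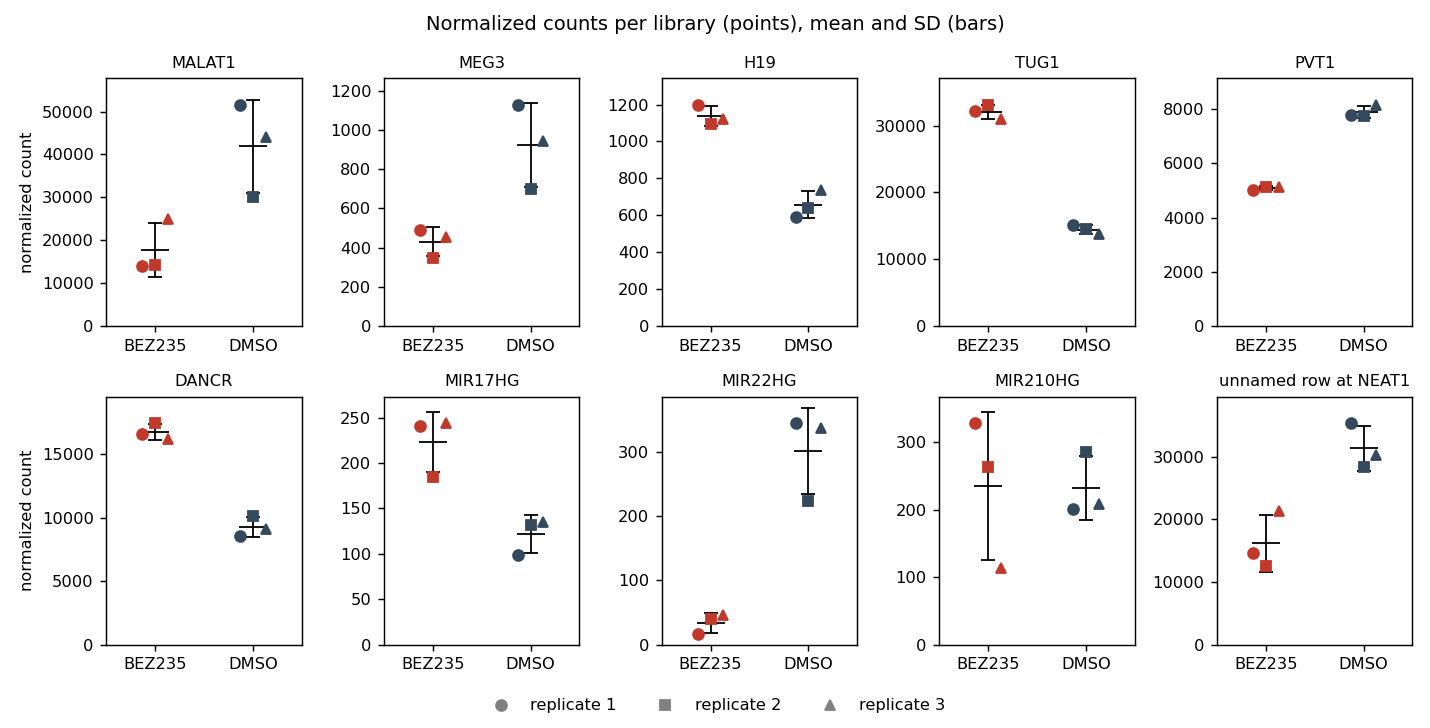
Normalized count (linear axis from 0) of each member and of the unnamed row at NEAT1 in the 3 BEZ235 libraries (left) and the 3 DMSO libraries (right); marker shapes give the replicate number, and bars the mean with its SD. The groups are apart in every panel but MIR210HG, whose BEZ235 values run between 113 and 328 around the DMSO values of 201 to 286.

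Of the RNAs of nuclear bodies, MALAT1 and the unnamed row at NEAT1 both fell. MALAT1 (GSHG0006366, chr11:65497738-65506516, hg38, plus strand in GENCODE, where it is a long intergenic RNA; the row also names the small RNA mascRNA cut from its end) had normalized counts of 13975, 14233 and 24927 in BEZ235 libraries, against 51535, 30053 and 44009 in DMSO libraries. Every BEZ235 library lay below every DMSO library, although the values within each group were spread widely. The means were 17712 ± 6250.0 in BEZ235 cells and 41866 ± 10900.0 in DMSO cells (SD, n = 3 each), and MALAT1 fell (log2 fold change -1.26, SE 0.225, limma adjusted p = 0.000479). In a bulk culture, fewer cells that express a gene and less RNA per cell cannot be told apart. A row for TALAM1, the antisense transcript of the locus, overlaps most of the MALAT1 row and held 86.0% to 89.6% of the MALAT1 value in each library. TALAM1 also fell (log2 fold change -1.28, limma adjusted p = 0.000368). The sources used here do not say whether counting kept strand, and reads of this pair cannot be told apart.

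The unnamed row (GSHG0006364, chr11:65422798-65445599, overlapping GENCODE v29 NEAT1 over 22743 bp) had 14607, 12571 and 21346 in BEZ235 libraries, against 35328, 28411 and 30354 in DMSO libraries. The groups did not overlap. Means of 16174 ± 4592 in BEZ235 cells and 31364 ± 3568 in DMSO cells (SD, n = 3 each) differed as a fall (log2 fold change -0.99, SE 0.158, limma adjusted p = 0.000213). The row reports the whole locus, so the short and long forms of NEAT1, of which the long one builds paraspeckles, were not separated.

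For MALAT1 and the NEAT1 row, BEZ235 replicate 3 was the highest BEZ235 library. DMSO replicate 1 was the highest DMSO library for both rows, and DMSO replicate 2 the lowest. DMSO replicate 1 stood apart in short structured RNAs made largely by RNA polymerase III. It was the highest DMSO library for 8 of the 8 tested members of that list. The list summed to 3129, 1697 and 4271 in BEZ235 libraries, against 16925, 2864 and 2402 in DMSO libraries. RN7SK, which holds the elongation factor P-TEFb inactive, had 271, 264 and 348 in BEZ235 libraries, against 2240.4, 269.6 and 325 in DMSO libraries. As fitted here by limma none of the 8 was called, and 2 had an unadjusted p under 0.05. Under 9 of the 18 alternatives, edgeR among them, 1 was called lower. The part of this library difference in the fall of MALAT1 was not tested. Without DMSO replicate 1 MALAT1 fell (log2 fold change -1.09, limma adjusted p = 0.000755), as did the NEAT1 row (-0.90). Without DMSO replicate 2 the log2 fold changes were -1.48 for MALAT1 and -1.05 for the NEAT1 row.

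Genes of paraspeckle proteins changed in both directions: of 25 listed, 12 rose and 8 fell, against 33.1% and 33.2% of all rows tested. BEZ235 replicate 3 was the lowest BEZ235 library for 23 of the 25. Without that library 13 rose and 8 fell. Under total-count scaling 11 rose and 10 fell, and with mitochondrial and rRNA rows left out of it 10 rose and 11 fell. Over all rows, total-count scaling called 6724 higher and 8678 lower, against 7912 and 7951 as deposited. With mitochondrial and rRNA rows left out of it, 6260 of all rows were called higher and 9627 lower. The core members NONO, SFPQ and PSPC1 rose. NONO had 154679.7, 158916 and 141790.0 in BEZ235 libraries, against 74536, 70706 and 76074 in DMSO libraries (log2 fold change 1.04, limma adjusted p = 9.26e-08). SFPQ, its usual partner, rose by 0.83 on the log2 scale (limma adjusted p = 1.59e-05). PSPC1, the third protein of that family, rose by 0.40 on that scale (limma adjusted p = 0.000502).

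Outside this core the list split. HNRNPA1, a splicing repressor with many processed copies that may share its reads, had the largest rise of the listed proteins, with means of 372961 ± 20671 in BEZ235 cells and 93918 ± 1327 in DMSO cells (SD, n = 3 each; log2 fold change 1.99, limma adjusted p = 1.02e-09). CPSF6, a cleavage factor for messenger RNA 3′ ends, rose (log2 fold change 1.23, limma adjusted p = 1.35e-08). ZC3H6 fell (log2 fold change -1.57, limma adjusted p = 8.65e-09), as did the splicing regulator HNRNPH3 (-1.03) and AKAP8L (-0.91). The median log2 fold change of the 25 was 0.10.

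MEG3 and H19 moved in opposite directions. MEG3 (GSHG0012511, chr14:100826106-100861026, plus strand) had 488, 348 and 456 in BEZ235 libraries, against 1127, 700.4 and 944 in DMSO libraries. All 3 BEZ235 values were lower than all DMSO values, and DMSO replicate 1 was again the highest. Its means were 430.3 ± 73.4 in BEZ235 cells and 924 ± 214 in DMSO cells (SD, n = 3 each; log2 fold change -1.09, SE 0.177, limma adjusted p = 0.000243). Without DMSO replicate 1 the log2 fold change was -0.93, and without DMSO replicate 2 it was -1.27.

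Other genes of the MEG3 domain had higher means in BEZ235 cells. Among 15 tested genes listed as imprinted partners or neighbours of the members, 10 rose and 3 fell. That list reaches beyond the MEG3 domain to genes on other chromosomes, such as WDR81, which rose, and RASSF7, which fell. Of all rows tested, 33.1% were called higher and 33.2% lower. Under both total-count scalings 7 of the 15 rose and 4 fell. Over all rows, too, these scalings called fewer higher and more lower. Without BEZ235 replicate 2, 6 rose, and 1 fell when BEZ235 replicate 3, DMSO replicate 1 or DMSO replicate 3 was left out. DLK1, a paternally expressed inhibitor of Notch signalling, had 4753, 4682 and 4235 in BEZ235 libraries, against 3674, 3453 and 4253 in DMSO libraries. Its groups overlapped, and its rise (log2 fold change 0.27, limma adjusted p = 0.0134) was not called under 5 of 18 alternatives, both total-count scalings among them. MEG8, a maternally expressed RNA further along the same strand, had 171, 125 and 169 in BEZ235 libraries, against 83.2, 70.2 and 112 in DMSO libraries, and rose (log2 fold change 0.82, limma adjusted p = 0.0101). RTL1, a retrotransposon-derived coding gene whose row overlaps that of MEG8, held 73 reads over the BEZ235 libraries and 15 over the DMSO libraries (log2 fold change 2.70, limma adjusted p = 0.0205). Its call was lost without BEZ235 replicate 2 (2.78) or BEZ235 replicate 3 (2.49), and leaving out 1 library at a time gave log2 fold changes of 1.74 (without DMSO replicate 2) to 3.41. MEG9 was at 48 ± 8.73 in BEZ235 cells and 24.2 ± 12.3 in DMSO cells (SD, n = 3 each; log2 fold change 1.05, limma adjusted p = 0.0457). The call of MEG9 was lost under 12 alternatives and kept under 5.

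H19 (GSHG0008472, chr11:1995176-2001466, minus strand) is the imprinted neighbour of the growth factor gene IGF2 and the host of miR-675. It had 1198, 1094 and 1119 in BEZ235 libraries, against 592, 640.4 and 736 in DMSO libraries. All BEZ235 values were above all DMSO values. Means were 1137 ± 54.1 in BEZ235 cells and 656 ± 73.3 in DMSO cells (SD, n = 3 each; log2 fold change 0.80, SE 0.0995, limma adjusted p = 3.18e-05). The SD was 4.76% of the mean in BEZ235 cells and 11.2% in DMSO cells. IGF2, expressed from the other parental copy, was higher too, with 284, 256 and 325 in BEZ235 libraries, against 75.6, 78.5 and 124 in DMSO libraries (log2 fold change 1.66, limma adjusted p = 5.03e-05). The nearest tested named row on the other side, LINC01219, lies 1707 bp away and went the other way. It had 16.2, 9.87 and 5.44 in BEZ235 libraries, against 209.6, 132 and 177 in DMSO libraries (log2 fold change -4.01, limma adjusted p = 6.34e-06).

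TUG1 rose, with the smallest adjusted p of the members. This RNA (GSHG0028549, chr22:30969265-30979395, plus strand), found in both nucleus and cytoplasm and first studied in the retina, had 32138, 33094 and 30971 in BEZ235 libraries, against 15096, 14462 and 13741 in DMSO libraries. The libraries of each group lay close together and the groups far apart. Means of 32068 ± 1063 in BEZ235 cells and 14433 ± 678 in DMSO cells (SD, n = 3 each) stood in a ratio of 2.22 (log2 fold change 1.15, SE 0.0536, limma adjusted p = 1.52e-08). MORC2, whose row begins 491 bp away on the other side of the same promoter region, was at 9956 ± 432 in BEZ235 cells and 8683 ± 593 in DMSO cells (SD, n = 3 each). Its log2 fold change of 0.20 (limma adjusted p = 0.0159) was not called under 5 of 18 alternatives. SMTN, the next tested named row on the other side, fell (log2 fold change -1.08, limma adjusted p = 5.08e-08).

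DANCR (GSHG0032600, chr4:52712394-52720697, plus strand), known for holding progenitor cells undifferentiated, had 16598, 17432 and 16209 in BEZ235 libraries, against 8563, 10136 and 9129 in DMSO libraries. Again the groups were well apart. Means were 16746 ± 625 in BEZ235 cells and 9276 ± 797 in DMSO cells (SD, n = 3 each; log2 fold change 0.86, SE 0.0658, limma adjusted p = 6.74e-07). The small RNAs that lie inside DANCR were not called. SNORA26, a guide for pseudouridine in ribosomal RNA, had 139, 104 and 139 in BEZ235 libraries, against 104, 89.9 and 115 in DMSO libraries (limma adjusted p = 0.241). MIR4449 had 81 reads over the BEZ235 libraries and 48 over the DMSO libraries (limma adjusted p = 0.143). Which reads in these short rows come from the DANCR transcript itself cannot be told apart.

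PVT1 (GSHG0042007, chr8:127794533-128101253, plus strand) is a long gene amplified together with MYC in many cancers. It had 5011, 5124 and 5127 in BEZ235 libraries, against 7790.5, 7753 and 8161 in DMSO libraries. Its libraries agreed most closely of all members, with an SD of 1.30% of the mean in BEZ235 cells and 2.85% in DMSO cells. PVT1 fell to 5087 ± 65.9 in BEZ235 cells, against 7901 ± 225 in DMSO cells (SD, n = 3 each; log2 fold change -0.63, SE 0.0508, limma adjusted p = 9.21e-07). MYC, 51582 bp away, went the other way, with 238175, 245246 and 225785 in BEZ235 libraries, against 160311, 188311 and 170539 in DMSO libraries (log2 fold change 0.45, limma adjusted p = 0.000214).

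Inside the PVT1 row lie 7 shorter rows. An unnamed one, GSHG0042011, fell (log2 fold change -0.78, limma adjusted p = 0.007). MIR1206 was not called, with 63 reads over the BEZ235 libraries and 78 over the DMSO libraries. MIR1205 and MIR1207 were too low to test: they had 15 and 12 reads over the BEZ235 libraries and 0 over the DMSO libraries, where a count of 0 allows up to 3 reads in a library, or 2.50 to 3.24 normalized counts. LINC02912 had means of 61.8 ± 32 in BEZ235 cells and 90.9 ± 19.6 in DMSO cells (SD, n = 3 each) and was called when BEZ235 replicate 3 was left out (log2 fold change -1.03, limma adjusted p = 0.0179), not otherwise (-0.65, limma adjusted p = 0.134).

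Of the 3 microRNA host genes, MIR22HG fell, MIR17HG rose and MIR210HG was not called. MIR22HG (GSHG0019972, chr17:1711504-1716272, minus strand) had the largest change of the members. Its values were 16.2, 40.5 and 45.3 in BEZ235 libraries, against 345, 224 and 337 in DMSO libraries, which is 105 reads over the BEZ235 libraries and 940 over the DMSO libraries. The means, 34 ± 15.6 in BEZ235 cells and 302 ± 67.5 in DMSO cells (SD, n = 3 each), made DMSO 8.88 times as high (log2 fold change -3.21, SE 0.363, limma adjusted p = 1.46e-05). With so few reads in BEZ235 cells the size is loosely fixed, and it ran between -3.48 and -2.76 over the alternatives.

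The rows on either side of MIR22HG went opposite ways. WDR81, a gene of endosome and lysosome biology whose row lies 251 bp away, had 2319, 2365 and 2312 in BEZ235 libraries, against 582, 538 and 618 in DMSO libraries (log2 fold change 2.01, limma adjusted p = 4.85e-09). TLCD2, 1127 bp away on the other side, fell (log2 fold change -1.11, limma adjusted p = 1.39e-06). The reported targets of miR-22 numbered 13 tested, of which 2 rose and 9 fell, against 33.1% and 33.2% of all rows tested. TET2, which oxidises methylated cytosine, had 4986, 5339.9 and 4943 in BEZ235 libraries, against 2740.5, 3473 and 2880.1 in DMSO libraries, and rose (log2 fold change 0.75, limma adjusted p = 1.44e-05).

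Among the miR-22 targets that fell, CDKN1A, an inhibitor of cell cycle kinases, had 2396, 2123 and 2888 in BEZ235 libraries, against 15365, 15988 and 16267 in DMSO libraries (log2 fold change -2.70, limma adjusted p = 1.97e-09). The histone deacetylase HDAC4 fell too (-1.16, limma adjusted p = 2.01e-07), as did MYCBP, which binds MYC (-0.75, limma adjusted p = 3.13e-07). The target lists share genes, and CDKN1A is also listed for the miR-17-92 cluster.

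MIR17HG (GSHG0046917, chr13:91347820-91354615, plus strand) carries the miR-17-92 cluster, known as an oncogenic microRNA cluster. It had 241, 185 and 244 in BEZ235 libraries, against 98.3, 132 and 135 in DMSO libraries. The lowest BEZ235 library was above the highest DMSO library. Means were 223 ± 33.3 in BEZ235 cells and 122 ± 20.5 in DMSO cells (SD, n = 3 each; log2 fold change 0.87, SE 0.197, limma adjusted p = 0.00245), from 664 reads over the BEZ235 libraries and 381 over the DMSO libraries.

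Of 6 transcription factors reported to act on the MIR17HG promoter, 2 rose and 2 fell, against 33.1% and 33.2% of all rows tested. MYC (above) and MYCN (log2 fold change 0.72, limma adjusted p = 0.00161) rose. E2F1, a driver of S-phase genes, had 1741, 1678 and 1755 in BEZ235 libraries, against 6235, 6099.7 and 6659 in DMSO libraries (log2 fold change -1.87, limma adjusted p = 1.16e-09). E2F2 had 349, 344 and 359.7 in BEZ235 libraries, against 3004, 3418 and 3389 in DMSO libraries (log2 fold change -3.22, limma adjusted p = 3.19e-10). Both E2F genes are also reported targets of the cluster. Of 15 such targets tested, 4 rose and 7 fell, against the same shares of all rows. The TGF-beta receptor TGFBR2 (0.48) and ZBTB4 (0.31) were among those that rose.

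MIR210HG (GSHG0008513, chr11:565657-568457, minus strand) hosts miR-210, a microRNA known for its induction at low oxygen. It had 328, 264 and 113 in BEZ235 libraries, against 201, 286 and 209 in DMSO libraries. The groups overlapped, with BEZ235 libraries both above and below all of the DMSO libraries. Means were 235 ± 110.1 in BEZ235 cells and 232 ± 47.1 in DMSO cells (SD, n = 3 each), and the gene was not called (log2 fold change -0.10, SE 0.332, limma adjusted p = 0.811). The sign of its change was not stable: without BEZ235 replicate 3 the log2 fold change was 0.36 (limma adjusted p = 0.15), and without DMSO replicate 2 it was 0.06. The row of MIR210 inside it was too low to test, with 14 reads over the BEZ235 libraries and 29 over the DMSO libraries.

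BEZ235 replicate 3 was the lowest BEZ235 library not only for MIR210HG but for 22 of 23 tested genes of the list of HIF1A and hypoxia genes. It was also the lowest for 23 of 25 paraspeckle genes, 10 of 15 tested targets of the miR-17-92 cluster and 9 of 12 tested targets of miR-210. PFKFB4, a regulator of glycolysis and the 1 gene of the list that rose, had 1618, 1665 and 798 in BEZ235 libraries, against 587, 508 and 597 in DMSO libraries (log2 fold change 1.20, limma adjusted p = 0.000852). PDK1, a mitochondrial kinase that inhibits pyruvate dehydrogenase, had 1573, 1386 and 945 in BEZ235 libraries, against 2124, 2547 and 2142 in DMSO libraries (log2 fold change -0.83, limma adjusted p = 0.000782). The part of this library difference in the results for MIR210HG and these lists was not tested.

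As a group, 12 of the 23 hypoxia genes fell and 1 rose, against 33.2% and 33.1% of all rows tested. Without BEZ235 replicate 3, 9 fell and 3 rose. HIF1A itself, the oxygen-regulated transcription factor, had 9076, 8895 and 8075 in BEZ235 libraries, against 10758, 10913 and 10391 in DMSO libraries (log2 fold change -0.30, limma adjusted p = 0.000788). VEGFA, the vessel growth factor, had 19460.5, 18223 and 16626 in BEZ235 libraries, against 74140.2, 86266 and 79709 in DMSO libraries (log2 fold change -2.14, limma adjusted p = 1.61e-09). ERO1A, which forms disulphide bonds in secreted proteins, fell (-1.41, limma adjusted p = 6.68e-09), and so did the prolyl hydroxylase gene EGLN3 (-1.88, limma adjusted p = 1.28e-07).

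Of 12 reported miR-210 targets tested, 7 fell and 2 rose, against 33.2% and 33.1% of all rows tested. However, 4 rose without DMSO replicate 2 and with quantile normalization, and 1 without BEZ235 replicate 2. ISCU, which builds iron-sulphur clusters, fell (log2 fold change -0.77, limma adjusted p = 2.06e-07). GPD1L fell (-1.02, limma adjusted p = 1.65e-07), and PTPN1, a tyrosine phosphatase of insulin signalling, fell (-1.37, limma adjusted p = 6.37e-09). The 2 that rose were EFNA3 (0.28, limma adjusted p = 0.00379), not called under total-count scaling without mitochondrial and rRNA rows, and BDNF (1.22, limma adjusted p = 0.0168), not called under 2 of 18 alternatives.

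**Figure D2:**
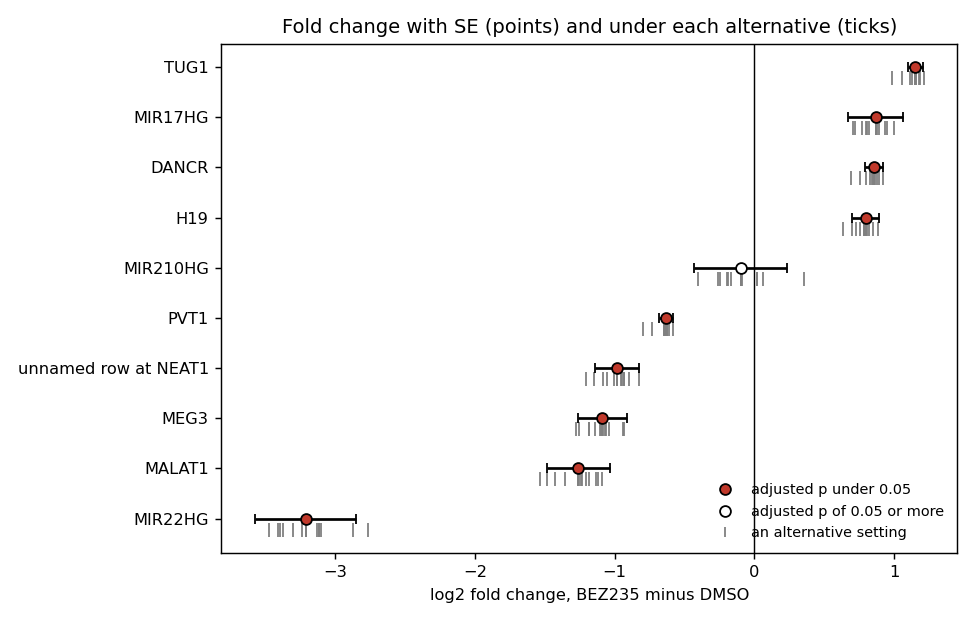
Log2 fold change, BEZ235 minus DMSO, of each member and of the unnamed row at NEAT1, with its SE (points and bars); grey ticks give the value under each of 18 alternatives and fill marks an adjusted p under 0.05. The ticks of MIR210HG fall on both sides of 0, and those of the other rows stay on 1 side.

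The nearest tested named rows of the remaining members gave no common direction. Beside MALAT1, LOC101927789 was not called (log2 fold change -0.16, limma adjusted p = 0.491). FRMD8, the nearest row before NEAT1, rose (0.98, limma adjusted p = 1.77e-06). Both neighbours of DANCR rose, USP46-DT (1.88) and ERVMER34-1 (0.43). SLITRK5, the nearest before MIR17HG, rose (0.38). Beside MIR210HG, RASSF7 fell (-0.42) and PHRF1 rose (0.55).

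The proteins that make microRNAs from such hosts changed in both directions. Of 16 tested, 6 rose and 4 fell, against 33.1% and 33.2% of all rows tested. Under both total-count scalings 5 rose and 6 fell, and over all rows, too, fewer were called higher and more lower. DROSHA, which cuts the hairpin in the nucleus, rose (log2 fold change 0.31, limma adjusted p = 0.000323). Its partner DGCR8 rose too (log2 fold change 0.59, limma adjusted p = 0.000257). RAN (1.14), the helicase DDX17 (0.94) and AGO1 (0.55) also rose. RAN and the exportin XPO5 carry the hairpin to the cytoplasm, and XPO5 fell (-0.47, limma adjusted p = 1.45e-05). DICER1, which makes the last cut, had 999, 1132 and 1169 in BEZ235 libraries, against 1823, 1425 and 1440.5 in DMSO libraries (log2 fold change -0.50, limma adjusted p = 0.00172). AGO3, of the same family as AGO1, fell (-0.55, limma adjusted p = 4.45e-05).

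Other microRNA host genes also changed in both directions. Among 66 further rows named as a microRNA host gene, a list drawn up after the values were seen, 31 were tested. Among the 31, 5 were called higher and 12 lower, against 33.1% and 33.2% of all rows tested. The median change of the 31 was -0.08 on the log2 scale. MIR3659HG had 2300.1, 2499 and 2307 in BEZ235 libraries, against 579, 510.3 and 552 in DMSO libraries (log2 fold change 2.11, limma adjusted p = 4.3e-09). MIR137HG (1.81) and MIR1915HG (1.77) rose as well. MIR924HG fell (-1.61, limma adjusted p = 5.21e-06), as did MIR3142HG (-1.46) and MIR497HG (-0.87).

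Other long noncoding RNAs changed in both directions: of 26 tested, 8 rose and 9 fell, against 33.1% and 33.2% of all rows tested. In this list 5 rose and 11 fell under total-count scaling, and 5 and 12 with mitochondrial and rRNA rows left out of it. All rows tested also moved toward lower calls under both of these scalings. CRNDE, a transcript raised in many tumours, had 2630.2, 2309 and 2666 in BEZ235 libraries, against 8856, 9208 and 8178 in DMSO libraries (log2 fold change -1.79, limma adjusted p = 5.35e-09). LINC00662 fell (-1.28, limma adjusted p = 1.43e-07). CYTOR and its near-identical copy MIR4435-2HG, between which reads may be split, fell by similar amounts (-1.27 and -1.23). LINC01116 (0.91) and EPB41L4A-AS1 (0.66), a small nucleolar RNA host, rose.

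**Figure D3:**
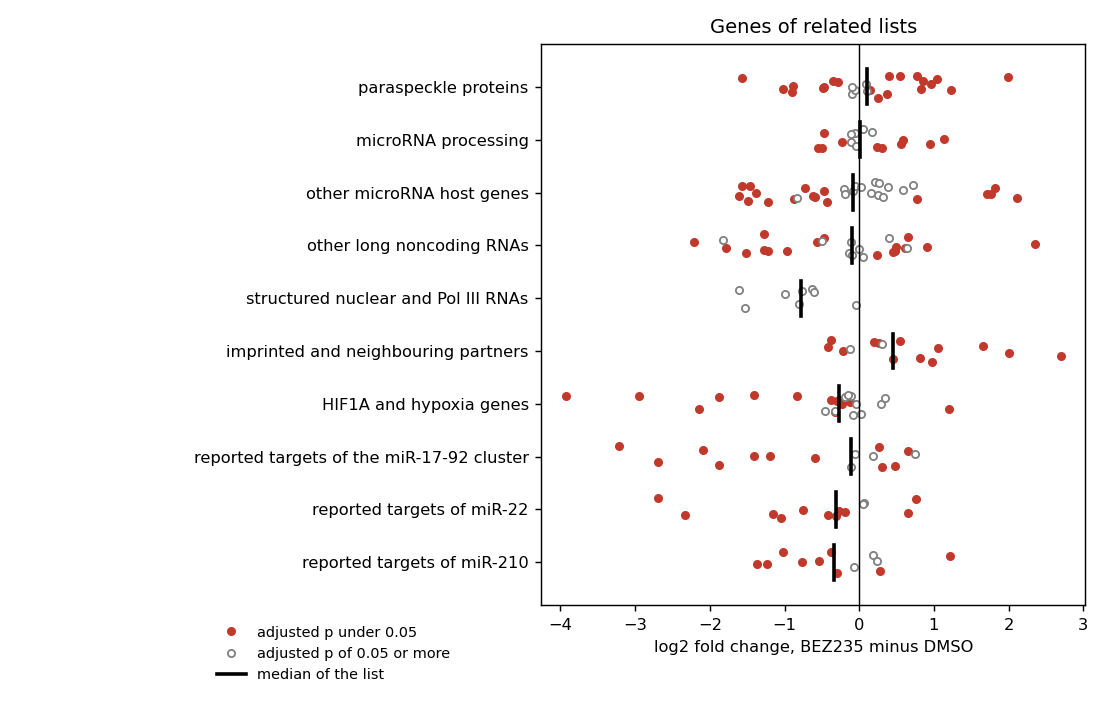
Log2 fold change, BEZ235 minus DMSO, of each tested gene of 10 related lists (points, filled where the adjusted p was under 0.05; vertical position within a row is random), with the median of each list (bar). Paraspeckle and microRNA-processing genes lie on both sides of 0. The lowest median is that of the short structured RNAs, at -0.78 with none called. Next come the miR-210 targets (-0.34), the miR-22 targets (-0.32) and the hypoxia genes (-0.27). The miR-17-92 targets (-0.11), other long noncoding RNAs (-0.10) and other microRNA host genes (-0.08) also have medians below 0.

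These RNAs are often called abundant and nuclear, and the first of these held for some of them. On a scale per length, mean normalized count per kilobase of GENCODE v29 exon, DANCR was at 7329 in BEZ235 cells (percentile 93.7 of 16861 rows with a length) and 4059.6 in DMSO cells (percentile 89.1). MALAT1 was at 2018 in BEZ235 cells (percentile 81.1) and 4769 in DMSO cells (percentile 90.5), so that it led the members in DMSO cells and not in BEZ235 cells. TUG1 was at 3165 in BEZ235 cells (percentile 87) and 1425 in DMSO cells (percentile 74.5).

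The lower end held the host genes and MEG3. MIR17HG was at 63.9 in BEZ235 cells and 34.9 in DMSO cells per kilobase, at percentile 23.9 in BEZ235 cells and 17 in DMSO cells. MEG3, taken over 22840 bp of annotated exon in all, was at 18.8 in BEZ235 cells and 40.4 in DMSO cells. How far that length lowers the value of MEG3 was not tested. MIR22HG was at 12.3 in BEZ235 cells and 109 in DMSO cells, so that it was the lowest of the members in BEZ235 cells. Whether the RNAs were in the nucleus was not measured, since RNA was taken from whole cells.

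**Figure D4:**
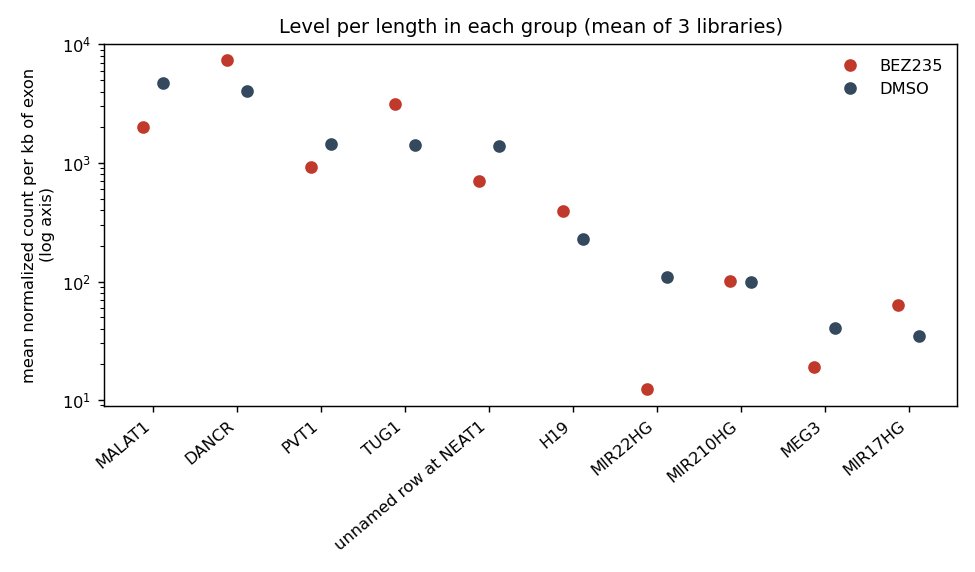
Mean normalized count per kilobase of exon (log axis) of each member and of the unnamed row at NEAT1 in BEZ235 cells (left point of each pair) and DMSO cells (right point), ordered by the DMSO level. Levels span 12.3 to 7329 in BEZ235 cells and 34.9 to 4769 in DMSO cells.

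Promoters are shown for the members with the clearest rise and the largest fall, and for the host gene tied to hypoxia. They are RefSeq windows on GRCh38.p14 from 250 bases before the start to 50 after it, with capitals marking the motifs ACGTG (the core of a hypoxia response element, also met inside the E-box CACGTG bound by MYC) and CCAAT, each searched on both strands. CACGT and ATTGG are these motifs read on the other strand.
TUG1 promoter, chr22:30969015-30969314, plus strand: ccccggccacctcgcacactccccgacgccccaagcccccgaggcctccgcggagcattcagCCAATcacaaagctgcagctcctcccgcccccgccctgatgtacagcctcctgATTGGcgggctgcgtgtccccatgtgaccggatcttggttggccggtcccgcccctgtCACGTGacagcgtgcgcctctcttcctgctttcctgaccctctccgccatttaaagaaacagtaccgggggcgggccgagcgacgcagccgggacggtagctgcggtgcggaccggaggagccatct
MIR22HG promoter, chr17:1716161-1716460, minus strand: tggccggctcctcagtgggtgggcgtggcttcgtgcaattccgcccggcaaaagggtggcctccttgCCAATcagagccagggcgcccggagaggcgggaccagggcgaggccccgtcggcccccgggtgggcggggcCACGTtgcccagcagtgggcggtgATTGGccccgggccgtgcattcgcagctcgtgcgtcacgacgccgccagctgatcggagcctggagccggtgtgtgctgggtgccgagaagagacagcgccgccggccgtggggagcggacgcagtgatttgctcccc
MIR210HG promoter, chr11:568408-568707, minus strand: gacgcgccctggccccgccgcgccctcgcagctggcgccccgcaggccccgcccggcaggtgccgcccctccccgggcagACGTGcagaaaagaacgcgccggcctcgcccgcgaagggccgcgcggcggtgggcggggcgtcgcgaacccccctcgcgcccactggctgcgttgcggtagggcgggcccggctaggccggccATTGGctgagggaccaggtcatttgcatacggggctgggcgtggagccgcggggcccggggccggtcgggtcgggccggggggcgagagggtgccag
CACGTG was found in the TUG1 window alone among 8 members with a promoter in the table, against 7.26% of 35116 promoters. ACGTG was found for 3 of the 8, TUG1, MIR22HG and MIR210HG, against 21.4% of promoters; its match in TUG1 is the same place as the E-box. CCAAT was found for 6 of the 8, DANCR, MEG3, MIR17HG, MIR210HG, MIR22HG and TUG1, against 34.6% of promoters. The 6 include members that rose, fell and were not called. A member was counted if any of its windows held the motif, with 11 windows for the 8 members. The shares beside them count single windows, so the units differ.

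The libraries held 186274074 to 221626548 recovered reads in BEZ235 cells and 184790722 to 233767211 in DMSO cells. Of the normalized counts, mitochondrial rows took 0.507% to 0.706% in BEZ235 cells and 2.82% to 3.55% in DMSO cells. Ribosomal RNA rows took 5.67% to 7.40% in BEZ235 cells and 7.10% to 10.8% in DMSO cells. Their part in the members' results was not tested. With both left out of the total used for scaling, 4 members rose and 4 fell. That scaling moved the median log2 fold change of all rows by -0.16 and the split of calls to 6260 higher and 9627 lower, against 7912 higher and 7951 lower as deposited. The counts of called markers that follow stand against 33.1% of all rows tested called higher and 33.2% called lower. All 10 Ewing sarcoma markers were tested, 4 of them higher and 4 lower. They summed to 361869 to 376569 in BEZ235 cells and 446460 to 491458 in DMSO cells. Of the blood markers 1 of 7, LYZ, was tested and called higher (log2 fold change 2.13, limma adjusted p = 0.0335). This call was lost under 5 alternatives and kept under 12. The 7 markers had sums of 28.99 to 54.4 in BEZ235 cells and 15.1 to 46.5 in DMSO cells, with CD3E, MS4A1 and HBB at 0. Of the epithelial markers 3 of 5 were tested and 1, EPCAM, was called higher (log2 fold change 1.06, limma adjusted p = 0.00636), with sums of 488 to 647 in BEZ235 cells and 434 to 503 in DMSO cells and KRT5 at 0. All 5 fibroblast markers were tested, 2 higher and 2 lower, though the call of DCN as higher was lost under 8 of 18 alternatives (without BEZ235 replicate 1 or 3 and without DMSO replicate 1 or 3 among them), with sums of 11431 to 12533 in BEZ235 cells and 11535 to 12699 in DMSO cells. None of 4 endothelial markers was tested, with sums of 8.11 to 13.8 in BEZ235 cells and 2.06 to 21.6 in DMSO cells.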

How the data were processed

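The authors deposited 1 table of normalized counts per gene (a nonnegative signal), with a column per library; all 6 value columns matched a sample. Per the submitters' processing notes, STAR 2.4.0, DESeq, SAMtools, Picard and FastQC were used with build hg38; the role of each is not recorded. The rows are FASTDB genes, per the file headers. For the counting rule, strand and RNA selection, nothing is given in the sources used here, and overlapping rows may share reads. Beside MALAT1, PVT1 and DANCR, the named genes HNRNPH3, CPSF6, AKAP8L, DROSHA, DGCR8, DDX17, XPO5, DICER1, AGO1, HIF1A, HDAC4, MYCBP, PTPN1, BDNF, MYCN, E2F2, IGF2, MORC2, SMTN, ZBTB4, FRMD8, EPB41L4A-AS1, LINC01116, LINC00662, MIR497HG, MIR4435-2HG, MEG8 and RTL1 overlap another tested row. Deposited values were whole multiples of 1 step per column (0.835 to 1.16), which gave whole reads for 100% of values within 0.01 normalized counts.

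Rows reaching a normalized count of 10 in 3 or more of the 6 libraries were tested with limma 3.58.1 (R 4.3.3, mean-variance trend, group as the only term, two-sided) on log2(normalized count + 1), which understates changes of low genes, with Benjamini-Hochberg adjustment over all 23923 rows and a threshold of 0.05. The procedure was tested on simulated data in which a far smaller share of rows changed than was called here. Its error rates at the share called here were not checked. An exact permutation test of 3 libraries against 3 cannot go below 0.1 and was not used. edgeR 4.0.16 (quasi-likelihood) and DESeq2 1.42.0 on recovered reads were alternatives, beside other scalings, pseudocounts, filters and each library left out; edgeR called 15744 rows and DESeq2 15706, against 15863. The limit of 3 reads for a count of 0 covers counting error only. Within groups libraries correlated at 0.982 to 0.987 over genes and differed by more than sampling noise.

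The members and gene lists were chosen with earlier results of these data known. Genes were named by rule: all members, microRNA rows inside them, the nearest tested named row on each side, up to 3 genes of each list per direction with the smallest adjusted p and a higher-group mean of 100 or more, and 12 genes whatever their values; MEG8, MEG9, RN7SK, PDK1 and LINC02912 were named after their values were seen. Some genes of this rule are not reported here. Exon lengths and gene positions come from GENCODE v29, of the same build.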

Additional observations from a re-analysis of the deposited data

How the results depend on the processing

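In each of the 18 alternatives 4 members rose and 4 fell, and the members called were 8. Log2 fold changes ran from -1.53 to -1.09 for MALAT1, -1.27 to -0.93 for MEG3, 0.63 to 0.88 for H19, 0.99 to 1.22 for TUG1, -0.80 to -0.58 for PVT1, 0.69 to 0.92 for DANCR, 0.71 to 1.0 for MIR17HG and -3.48 to -2.76 for MIR22HG. MIR210HG, never called, turned positive with edgeR (0.0186), DESeq2 (0.0161), without BEZ235 replicate 3 (0.36) and without DMSO replicate 2 (0.06), and ran from -0.40 to 0.36 when libraries were left out; the cause was not tested. Leaving out libraries also turned MIR1206 (-1.29 to 0.0032, positive without BEZ235 replicate 2) and LOC101927789 beside MALAT1 (-0.31 to 0.0116, positive without BEZ235 replicate 2), neither of them called. The count of rows called ran from 14483 to 16102. Deviations of same-numbered libraries from their group means correlated at -0.038, 0.023 and 0.044, and not every library correlated best with its own number. These correlations cannot tell whether the libraries were paired when prepared. With a replicate block 15917 rows were called, against 15863, and each member kept its call. The block lowered the SE of some members (MALAT1, 0.225 to 0.145) and raised that of others (PVT1, 0.0508 to 0.0571). Of the hypoxia genes 3 rose with quantile normalization, edgeR, a replicate block or without BEZ235 replicate 3, against 1. Under total-count scaling without mitochondrial and rRNA rows 18 fell, against 12, and 9627 of all rows were called lower, against 7951. Low reads limit MIR22HG in BEZ235 cells and the rows inside PVT1.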
